A study of Mus musculus with 8 samples.

Results

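The genes described here encode 34 proteins that prepare, start or carry out DNA replication, together with the cyclins and the transcription factor that open the way into S phase. They were chosen by symbol, and all 34 were found among the 22183 genes of the deposited table. Messenger RNA was sequenced from the livers of C57 mice, a common laboratory strain, in 3 groups, and no other allele is named in the labels. The livers labelled CTRL (n = 2) carry the label control, although the protocol text attached to them is the one given for the injected mice and nothing says whether they received PBS. APAP_PBS livers (n = 3) came from mice injected into the peritoneal cavity with 400 mg/kg APAP (usually short for acetaminophen) and given PBS, a salt solution. APAP_MSC livers (n = 3) came from mice given the same dose and, 4 hours later, MSCs by the tail vein, usually read as mesenchymal stromal cells. The labels do not give the source of these cells. Tissue was taken at 24 hours. Whether replicates are different animals is not stated, and p-values here reflect only how far these samples scatter, a scatter that may be technical. What the design asks of these genes is whether their transcripts differ between control and APAP livers, and between APAP livers with and without MSCs.

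Replication is licensed when ORC, CDC6 and CDT1 load the ring-shaped MCM helicase on origins in G1, while geminin holds CDT1 back later in the cycle. In S phase CDC45 and GINS join MCM to form the active helicase, primase and polymerases copy the strands behind it, PCNA clamps the polymerases to DNA, and ribonucleotide reductase and thymidylate synthase supply the deoxynucleotides. Most of these genes are transcribed at low levels in resting cells and are induced by E2F factors once cyclins D and E have inactivated the retinoblastoma proteins. Adult hepatocytes are mostly quiescent and re-enter the cycle after tissue loss, which includes loss to acetaminophen.

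The estimated counts summed to between 16261200 and 24516500 per library, and 12722 genes passed the filter on low counts. Levels are given as CPM, counts scaled to the library size after TMM normalisation. Every library held the hepatocyte markers. The sum of 7 of them was 101572 to 119223 CPM in CTRL, 84954 to 98864 CPM in APAP_PBS and 90338 to 98507 CPM in APAP_MSC. Both CTRL sums thus lay above those of all APAP libraries. Alb made up most of each sum, at 87868 and 72610 CPM in CTRL and 54476 to 66975 CPM in the APAP libraries. In APAP_PBS against CTRL, 5 of the 7 markers had a fold change below 0 and 2 above it. The latter were Apob and Fgb, with Fgb means of 4729 CPM in CTRL and 9630 CPM in APAP_PBS. The CTRL libraries lay at -46.1 and -54.5 on the first principal component (44.96% of variance). Replicate 2 of APAP_MSC was on the same side at -14.4, and the other APAP libraries ranged from 13.5 to 34.3. Libraries within a group differed by more than sampling noise in each pair.

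The E2F element is the promoter motif through which E2F factors bind many replication genes, so promoter windows of the members were read for it. RefSeq windows on GRCm38.p6, from 250 bases before to 50 bases after an annotated start, were found for 27 of the 34 members, with 32 windows in all. Ccnd1, Ccne2, Gins1, Gins2, Gmnn, Mcm4 and Pole were not matched. The letters searched on both strands were TTTCCCGC, TTTGGCGC, TTTCGCGC and TTTGCCGC. They occurred in 12 of the 32 member windows (37.5%), 1 window for each of 12 members, and in 744 of all 32851 windows (2.26%). The 12 members were Orc1, Cdc6, Cdt1, Mcm3, Mcm5, Mcm6, Mcm7, Rfc3, Pola1, Pold1, Lig1 and Uhrf1. The CCAAT box, searched as CCAAT, occurred in 56.2% of member windows and 37.4% of all, and the CHR element of late cell-cycle genes, searched as TTTGAA, in 9.38% and 17.9%. A match is a run of letters and not a shown binding site, and the windows were not tested for factor binding here. The sequences below are parts of the windows of the 5 members that were higher in APAP_PBS than in CTRL. Each of these members holds the element in 1 window, with its letters in capitals and in either direction. The windows at the other annotated starts of Uhrf1 and Lig1 held no match, and the Lig1 match lies 26 to 33 bases after the start. Matches overlap each other in Mcm6 and in Mcm5.

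Mcm6, chr1:128359706-128359855, minus strand: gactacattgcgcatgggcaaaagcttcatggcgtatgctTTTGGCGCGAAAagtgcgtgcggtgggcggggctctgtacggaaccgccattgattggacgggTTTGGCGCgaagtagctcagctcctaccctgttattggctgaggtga
Mcm5, chr8:75109287-75109436, plus strand: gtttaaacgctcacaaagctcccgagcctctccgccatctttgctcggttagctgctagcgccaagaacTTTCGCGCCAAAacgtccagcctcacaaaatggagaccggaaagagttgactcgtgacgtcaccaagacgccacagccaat
Uhrf1, second annotated start, chr17:56304063-56304206, plus strand: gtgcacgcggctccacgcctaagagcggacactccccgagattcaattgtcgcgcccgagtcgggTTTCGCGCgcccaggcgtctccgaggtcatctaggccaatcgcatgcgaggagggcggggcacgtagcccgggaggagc
Cdc6, chr11:98907942-98908091, plus strand: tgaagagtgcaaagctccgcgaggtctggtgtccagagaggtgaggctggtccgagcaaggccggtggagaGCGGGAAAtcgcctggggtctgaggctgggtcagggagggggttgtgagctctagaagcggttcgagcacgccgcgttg
Lig1, second annotated start, chr7:13278841-13278870, plus strand: cgccaaagtgcGCGCGAAAtctgtgtggcg

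Rrm2, the member that was lower in both APAP groups, is shown beside them because its window held none of the E2F letters searched. This sequence was added after its values were seen, and its capitals mark the CCAAT box.

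Rrm2, chr12:24708104-24708253, plus strand: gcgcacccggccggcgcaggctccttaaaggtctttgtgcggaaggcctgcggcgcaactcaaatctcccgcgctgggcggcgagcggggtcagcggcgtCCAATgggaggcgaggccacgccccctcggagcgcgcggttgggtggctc

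The windows of Mcm10 and Tyms, with values below CTRL in all APAP libraries, held none of the E2F letters. Neither did those of Mcm2, Cdc45, Pcna, Prim1, Tk1 and E2f1, with values above CTRL in all APAP_PBS libraries. Of Pola1 and Rrm1, both with values below CTRL in APAP_MSC, Pola1 held a match and Rrm1 did not, and Ccnd1 had no matched window.

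**Figure D1:**
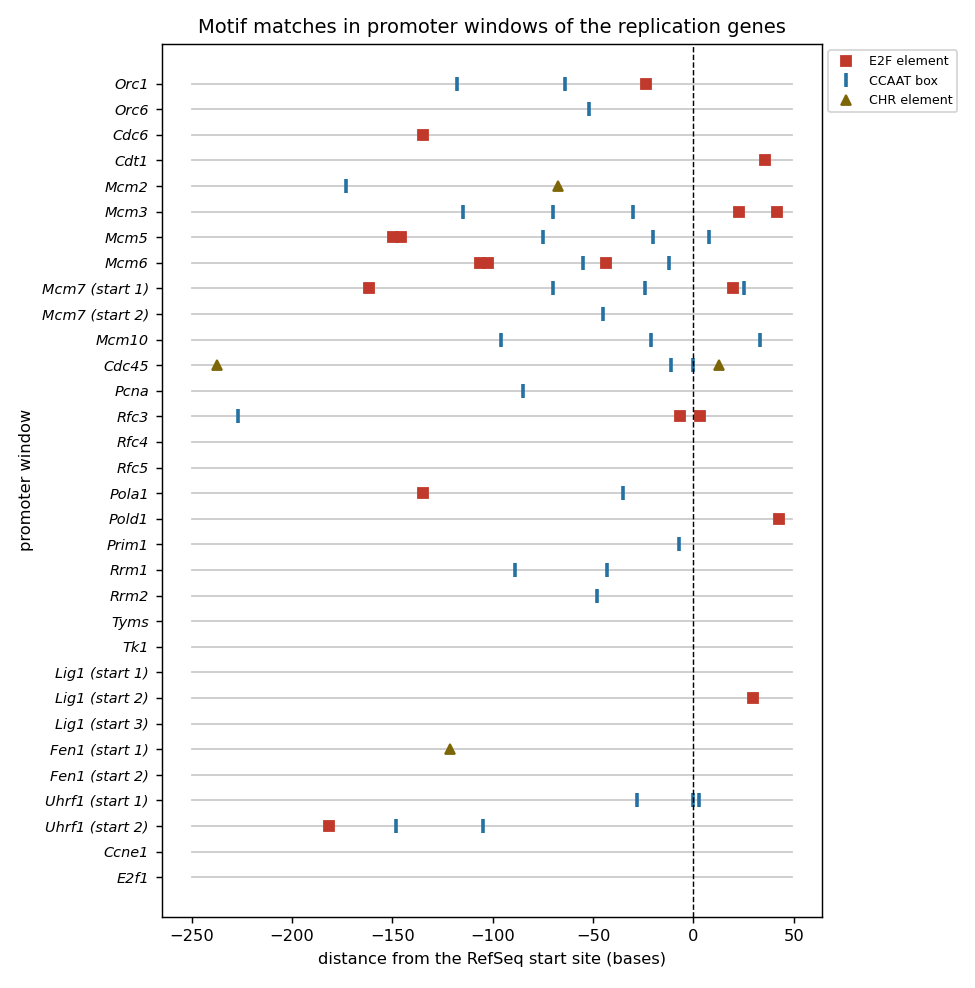
Matches to the 3 motifs in the 32 RefSeq promoter windows of 27 members, plotted by distance in bases from the annotated start (dashed line), with 1 grey line per window. Squares mark the E2F element, which 12 windows hold, bars mark the CCAAT box and triangles the CHR element.

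Of the 34 members, 3 were near the detection limit, set here at a median of 10 counts or fewer over the libraries of a group. Orc1, the largest subunit of the origin recognition complex, was near it in all groups, with 0 counts in both CTRL libraries, 1 count in each APAP_PBS library, and 0, 4 and 2 counts in APAP_MSC. It did not pass the filter, so 33 members were tested, and no fold is given for it. Cdc6, the factor that loads MCM together with ORC, was also near the limit in all groups, with 0 counts in both CTRL libraries, 9, 15 and 4 counts in APAP_PBS, and 3 in each APAP_MSC library. The floor used here is 3 counts, the upper limit for a count of 0, and equals 0.117 to 0.214 CPM in these libraries, for counting error only. Cdc6 therefore lay at this floor in CTRL and APAP_MSC. Uhrf1, which reads newly copied, hemimethylated DNA and brings in the maintenance methyltransferase, was near the limit in CTRL, with 2 and 5 counts.

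Per transcript length, Pcna was the most abundant member in each group, at 13.7 ± 0.286 FPKM in CTRL (SD, n = 2), 21.5 ± 4.27 in APAP_PBS (SD, n = 3) and 16.9 ± 1.63 in APAP_MSC (SD, n = 3). FPKM is the deposited value scaled to gene length and library size. The order below it differed between the groups. Mcm10, which helps to activate the helicase, stood at rank 2 in CTRL with 7.87 ± 2.28 FPKM, and at ranks 7 and 6 in APAP_PBS and APAP_MSC, with 4.05 ± 0.726 and 4.29 ± 1.62 FPKM. Rrm2, the small subunit of ribonucleotide reductase that is limiting in S phase, stood at rank 6 with 4.35 ± 0.888 FPKM, and at ranks 22 and 21 with 1.19 ± 0.293 and 1.20 ± 0.536 FPKM. Mcm6 stood at rank 16 with 1.57 ± 0.159 FPKM, and at ranks 6 and 8 with 4.38 ± 0.988 and 3.54 ± 0.233 FPKM. Below Mcm10 in CTRL came Tk1 (5.81 ± 1.17 FPKM), Gmnn (5.71 ± 0.187) and Tyms (5.37 ± 0.0764), with Gmnn and Tyms within the SD of Tk1.

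Against CTRL, APAP_PBS livers held more transcript of Mcm6, Mcm5, Uhrf1, Cdc6 and Lig1, and less of Rrm2. These were 5 members higher and 1 lower of the 33 tested (quasi-likelihood test of edgeR, adjusted p under 0.05 by Benjamini-Hochberg over all genes tested), where 4.29% of all genes tested were higher and 5.97% lower. The genes that rose act in origin licensing (Cdc6), in the helicase ring (Mcm5 and Mcm6) and in joining and marking new DNA (Lig1 and Uhrf1), while the gene that fell makes deoxynucleotides. Cdc6 passed the filter through its APAP_PBS counts alone, so it had to differ in order to be tested. The rest did not pass, and for 12 of them the adjusted p lay between 0.0504 (Mcm3) and 0.117 (Pcna). Without Cdc6, whose fitted fold rests on counts of 0, the fold change was above 0 for 26 of 32 members and below 0 for 6, with a median log2 fold change of 0.56, beside 6828 genes above 0, 5894 below 0 and a median of 0.03 over all genes tested. Unadjusted p was under 0.05 for 57.6% of the 33 members and for 26.8% of all genes tested. All APAP_PBS libraries lay above both CTRL libraries for 18 members, where 25% of all genes tested did so. They lay below both for 4 members (Mcm10, Rrm2, Tyms and Ccnd1), where 22.6% did. Cdc6, which had to be high in APAP_PBS to be tested, is counted in that 57.6% and among the 18. In whole liver, fewer cells of a type and less RNA per cell cannot be told apart.

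The count of members that rose depended on the scaling and on single libraries. Scaled by library size without TMM, all genes had a median of 0.27 in place of 0.03, and 1620 were higher and 371 lower in place of 546 and 760. Under that scaling 15 members were higher and 1 lower, and Gmnn and Rrm1 changed sign. On deposited FPKM 8 were higher, or 4 with no filter, and Uhrf1 was in neither set. The count was 1 (Mcm6) without APAP_PBS replicate 1, without APAP_PBS replicate 2 or without CTRL replicate 1, and 0 without CTRL replicate 2. Rrm2 stayed lower in all 17 alternatives, and Mcm6 stayed higher in 16, the exception being the fit without CTRL replicate 2 (log2 fold change 1.05, edgeR adjusted p = 0.0517).

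**Figure D2:**
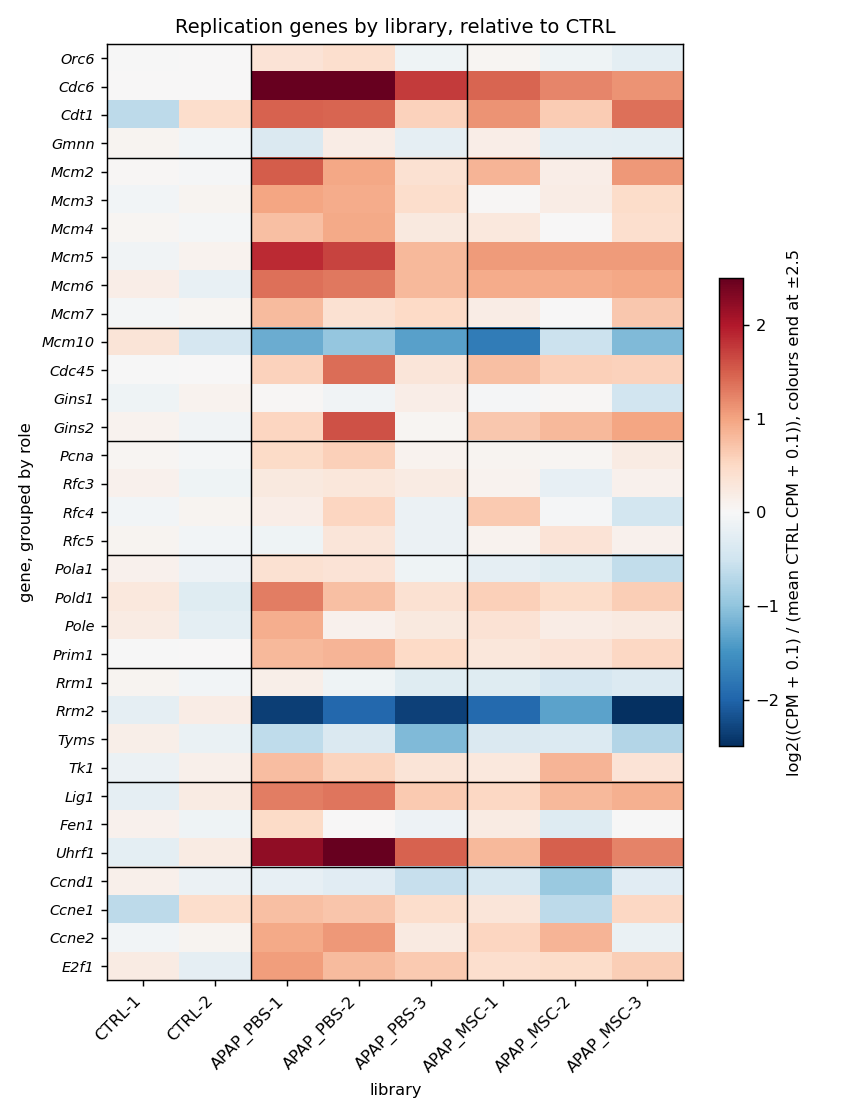
Level of the 33 tested members (rows, in order of role) in each of the 8 libraries (columns), as log2 of CPM plus 0.1 over the mean CTRL CPM plus 0.1, with colours ending at 2.5 in either direction. The MCM rows are red in the APAP_PBS columns, most strongly in replicate 1 for Mcm2 and Mcm5, while Rrm2 and Mcm10 are blue in each APAP column.

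The APAP_PBS libraries were not alike. Replicates 1 and 2 lay above both CTRL libraries for 26 and 25 of the 33 tested members, and replicate 3 for 20. Replicate 3 held the lowest value of its group for 28 members and the highest for 1. The summed level of Mcm2 to Mcm7 was 24.6 and 24.1 CPM in CTRL, 53.4, 47.0 and 35.5 CPM in APAP_PBS, and 34.5, 31.4 and 41.3 CPM in APAP_MSC. All APAP libraries thus lay above CTRL for this sum, and APAP_PBS replicate 3 lay inside the range of APAP_MSC. Among the lists of other cell types, 2 of 9 monocyte and macrophage markers (Ccr2 and Cd68) and 3 of 8 neutrophil markers (Prtn3, S100a8 and Retnlg; 4 of the 8 were tested) were higher in APAP_PBS than in CTRL by the same test. So were Sox9 of 6 cholangiocyte, Des of 7 stellate, Vcam1 of 6 mesenchymal stromal cell and Fgb of 7 hepatocyte markers. Colec11 of the stellate, Alas2 of 8 erythroid and Ttr of the hepatocyte markers were lower, beside the 4.29% and 5.97% of all genes tested. S100a8 and Retnlg passed the filter through their APAP_PBS counts alone, so they had to be high there to be tested. The monocyte and macrophage markers summed to 104 to 161 CPM in CTRL, 141 to 252 CPM in APAP_PBS and 112 to 150 CPM in APAP_MSC, with none at 0 throughout a group. The neutrophil markers summed to 0.846 to 1.42, 9.54 to 24.0 and 5.26 to 10.5 CPM, with Ly6g, Mpo, Elane and Camp at 0 in CTRL, Ly6g at 0 in APAP_PBS, and Mpo and Camp at 0 in APAP_MSC. In APAP_PBS, Mpo and Camp reached no more than 0.0585 and 0.0565 CPM, below the floor. Prtn3 made up most of the APAP_MSC sums, at 5.07, 8.28 and 3.85 CPM. Mean S100a8 was 0.202 CPM in CTRL, 2.60 in APAP_PBS and 0.361 in APAP_MSC, and mean S100a9 was 0.709, 5.02 and 1.33 CPM. The cholangiocyte markers summed to 51.0 to 85.1, 73.8 to 93.7 and 52.5 to 58.6 CPM with none at 0. The erythroid markers summed to 138 to 141, 71.0 to 156 and 60.7 to 125 CPM. Erythroid markers at 0 included Epb42 in each group and Slc4a1 in CTRL and APAP_PBS. Of the 5 tested erythroid markers, 4 had fold changes above 0 in APAP_PBS against CTRL, with 0 called higher and a median log2 value of 2.79. Alas2 alone was below 0, with means of 133 CPM in CTRL and 62.5 CPM in APAP_PBS, and it made up most of the CTRL sum. The stellate markers summed to 231 to 237, 214 to 228 and 209 to 219 CPM, and the mesenchymal stromal cell markers to 288 to 300.0, 301 to 345 and 289 to 302 CPM, with none at 0. Their part in the values of the replication genes was not tested.

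In origin licensing, Cdc6 was at 0 in both CTRL libraries, at 0.509, 0.621 and 0.234 CPM in APAP_PBS, and at 0.175, 0.134 and 0.117 CPM in APAP_MSC. Every APAP_PBS library lay above CTRL and above every APAP_MSC library. Its APAP_PBS mean was at least 2.56-fold higher than the floor of 3 counts per CTRL library, and no fold against CTRL is given for APAP_MSC, which lay at the floor. Its edgeR adjusted p of 0.0263 rests on a gene kept through the group where it was high, was 0.0246 with no filter, and missed the threshold without CTRL replicate 1 (0.0922) or CTRL replicate 2 (0.141). Cdt1, the partner of CDC6 in loading, stood at 0.712 and 1.65 CPM in CTRL, 3.45, 3.40 and 1.81 in APAP_PBS, and 2.68, 1.88 and 3.23 in APAP_MSC. Both APAP groups lay above CTRL without overlap, but the 2 CTRL values were far apart, and the log2 fold change in APAP_PBS of 1.25 ± 0.43 (SE) did not pass (edgeR adjusted p = 0.0901). Gmnn, which encodes geminin, gave overlapping groups, at 6.34 and 5.73 CPM in CTRL, 4.69, 6.83 and 5.15 in APAP_PBS, and 6.77, 5.14 and 5.06 in APAP_MSC. Its APAP_PBS fold change was -0.11 ± 0.22 (SE, edgeR adjusted p = 0.808). Orc6, the smallest ORC subunit, had means of 3.73 ± 0.0409, 4.40 ± 0.835 and 3.47 ± 0.368 CPM (SD) in CTRL, APAP_PBS and APAP_MSC, with overlapping groups.

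The 6 genes of the MCM helicase all had a positive fold change in APAP_PBS against CTRL, with a median of 0.94 on the log2 scale, and 2 of them rose. Mcm6 (chr1:128331590-128359664 on GRCm38, minus strand) stood at 5.91 and 4.61 CPM in CTRL, 13.8, 13.3 and 9.30 in APAP_PBS, and 10.03, 10.1 and 10.4 in APAP_MSC. All 6 APAP libraries lay above both CTRL libraries, and the APAP_MSC values lay inside the APAP_PBS range. It rose by a log2 fold change of 1.22 ± 0.20 (SE; edgeR adjusted p = 0.00483), 2.33-fold. Mcm5 stood at 0.997 and 1.13 CPM in CTRL, 4.13, 3.64 and 1.93 in APAP_PBS, and 2.33, 2.33 and 2.34 in APAP_MSC. Its APAP libraries also lay above CTRL, with replicate 3 of APAP_PBS the lowest of them. It rose by 1.60 ± 0.36 (SE; edgeR adjusted p = 0.0190), 3.02-fold. The other 4 ring subunits did not pass. Mcm3 came nearest, at 3.63 and 4.04 CPM in CTRL, 7.74, 7.41 and 5.21 in APAP_PBS, and 3.91, 4.38 and 5.29 in APAP_MSC. Its APAP_PBS values lay above CTRL, and its APAP_MSC values overlapped both groups. The log2 fold change was 0.82 ± 0.24 (SE; edgeR adjusted p = 0.0504), which passed in 10 of 17 alternatives. Mcm7 stood at 7.62 and 8.23 CPM in CTRL, 13.8, 10.4 and 11.3 in APAP_PBS, and 9.04, 8.01 and 12.6 in APAP_MSC, with a log2 fold change of 0.57 ± 0.21 (SE; edgeR adjusted p = 0.111). Mcm2 and Mcm4 gave 1.05 ± 0.37 and 0.70 ± 0.25 (SE; edgeR adjusted p of 0.0946 and 0.106).

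**Figure D3:**
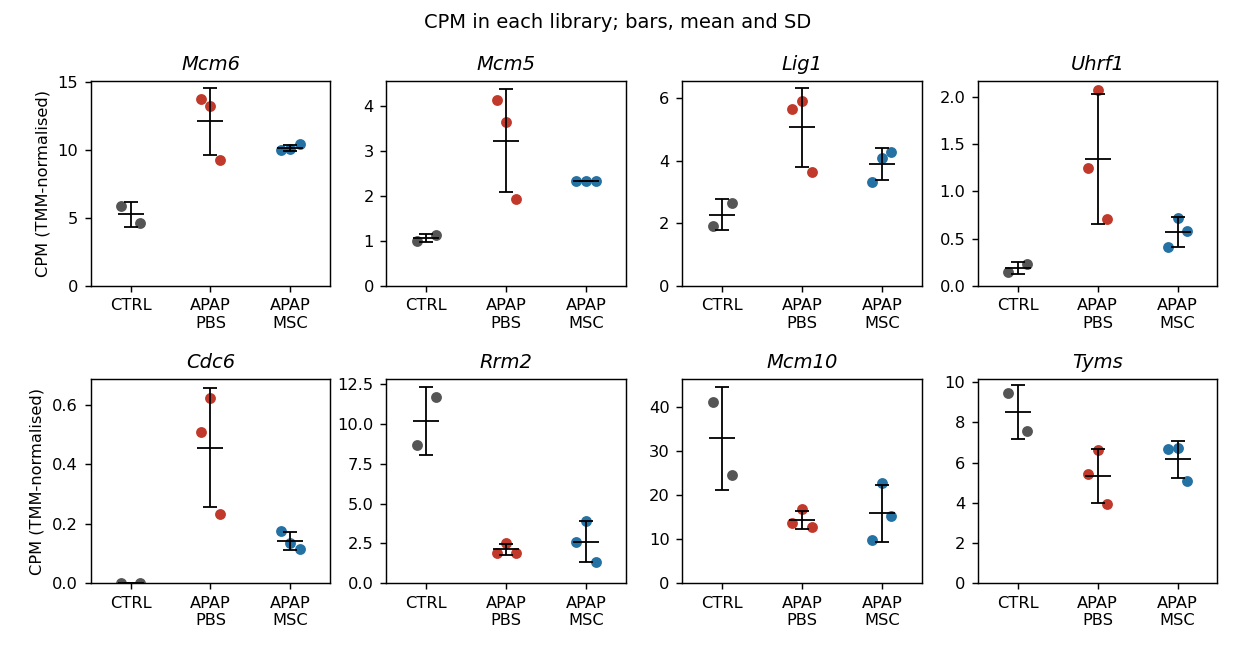
CPM of 8 members in each library, with 1 point per library, long bars at the group mean and whiskers of 1 SD, on linear axes from 0. Mcm6, Mcm5, Lig1, Uhrf1 and Cdc6 are higher in the APAP_PBS libraries than in CTRL, and Rrm2, Mcm10 and Tyms are lower.

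Among the factors that turn the loaded ring into a working helicase, none passed, and the fold change of Mcm10 had the opposite sign to those of the ring subunits. Mcm10 stood at 41.1 and 24.5 CPM in CTRL, 13.7, 16.7 and 12.8 in APAP_PBS, and 9.74, 22.6 and 15.2 in APAP_MSC. Both CTRL libraries lay above all APAP libraries, although the CTRL values differed widely and APAP_MSC replicate 2 came close to the lower of them. Its log2 fold change in APAP_PBS was -1.18 ± 0.34 (SE; edgeR adjusted p = 0.0700), and it passed in 4 of 17 alternatives, among them DESeq2. Cdc45, which binds the MCM ring, had 0.649 ± 0.0122 CPM in CTRL (SD, n = 2) and 1.23 ± 0.555 in APAP_PBS (SD, n = 3), and its fold change was 0.94 ± 0.47 on the log2 scale (SE; edgeR adjusted p = 0.226). Gins2, a subunit of the GINS complex, reached 5.84 CPM in APAP_PBS replicate 2, while the other replicates of that group stood at 2.77 and 1.93 and CTRL at 1.99 and 1.74. Gins1, another subunit, stood at 2.21 and 2.54 CPM in CTRL, 2.43, 2.24 and 2.69 in APAP_PBS, and 2.33, 2.42 and 1.67 in APAP_MSC. Its groups overlapped, and its log2 fold change of 0.04 ± 0.28 (SE; edgeR adjusted p = 0.946) was the least significant among the members.

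The clamp and its loader gave no call. Pcna stood at 24.0 and 22.5 CPM in CTRL, 32.3, 35.3 and 24.6 in APAP_PBS, and 24.5, 24.0 and 26.7 in APAP_MSC. Replicates 1 and 2 of APAP_PBS stood apart from all other libraries, and replicate 3 was close to CTRL. The log2 fold change was 0.41 ± 0.15 (SE; edgeR adjusted p = 0.117). Rfc5, a small subunit of the clamp loader, stood at 9.19 and 8.27 CPM in CTRL, 8.08, 10.9 and 7.84 in APAP_PBS, and 9.33, 11.1 and 9.42 in APAP_MSC, with overlapping values and a log2 fold change in APAP_PBS of 0.04 ± 0.18 (SE; edgeR adjusted p = 0.913). Rfc3 and Rfc4, further loader subunits, gave 0.26 ± 0.21 and 0.23 ± 0.36 (SE; edgeR adjusted p of 0.483 and 0.740).

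The polymerase and primase genes all had positive fold changes in APAP_PBS, and none passed. Prim1, the catalytic primase subunit, stood at 2.06 and 2.12 CPM in CTRL, 3.73, 3.85 and 2.98 in APAP_PBS, and 2.57, 2.68 and 3.04 in APAP_MSC. All APAP libraries lay above CTRL, and the log2 fold change in APAP_PBS was 0.75 ± 0.25 (SE; edgeR adjusted p = 0.0818). Pola1, which extends the RNA primers with DNA, stood at 4.77 and 4.04 CPM in CTRL, 5.77, 5.63 and 4.10 in APAP_PBS, and 3.73, 3.53 and 2.84 in APAP_MSC. Here APAP_PBS overlapped CTRL (0.24 ± 0.24, SE; edgeR adjusted p = 0.575), and APAP_MSC lay below both groups. Pold1 and Pole, the catalytic subunits of the lagging- and leading-strand polymerases, gave log2 fold changes of 0.91 ± 0.34 and 0.49 ± 0.35 (SE; edgeR adjusted p of 0.115 and 0.406).

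Nucleotide supply was the role with most values below 0, at 3 of 4 genes. Rrm2 (chr12:24708241-24714146 on GRCm38, plus strand) stood at 8.69 and 11.7 CPM in CTRL, 1.92, 2.53 and 1.93 in APAP_PBS, and 2.57, 3.94 and 1.36 in APAP_MSC. Both CTRL libraries lay above all 6 APAP libraries by a wide gap. It fell by 2.25 ± 0.36 on the log2 scale (SE; edgeR adjusted p = 0.00444), 4.76-fold lower. Rrm1, the large subunit of the same enzyme, stood at 13.9 and 12.6 CPM in CTRL, 14.6, 12.3 and 10.8 in APAP_PBS, and 10.7, 9.89 and 10.4 in APAP_MSC. Its APAP_PBS values overlapped CTRL (-0.07 ± 0.15, SE; edgeR adjusted p = 0.807). Tyms, thymidylate synthase, stood at 9.47 and 7.57 CPM in CTRL, 5.43, 6.63 and 3.92 in APAP_PBS, and 6.65, 6.71 and 5.10 in APAP_MSC. CTRL lay above all APAP libraries, and the log2 fold change of -0.66 ± 0.24 in APAP_PBS did not pass (SE; edgeR adjusted p = 0.1003). Tk1, the thymidine kinase of S phase, had the opposite sign, at 8.40 and 10.2 CPM in CTRL, 15.9, 13.7 and 11.7 in APAP_PBS, and 11.3, 16.7 and 11.8 in APAP_MSC, with a log2 fold change of 0.56 ± 0.20 (SE; edgeR adjusted p = 0.110).

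Lig1, the ligase that seals Okazaki fragments, stood at 1.92 and 2.63 CPM in CTRL, 5.65, 5.92 and 3.63 in APAP_PBS, and 3.32, 4.07 and 4.28 in APAP_MSC. All APAP libraries lay above CTRL. It rose by a log2 fold change of 1.14 ± 0.28 (SE; edgeR adjusted p = 0.0280), 2.21-fold. Zswim9 overlaps Lig1 on the opposite strand at a mean of 1.31 CPM, and the strand setting is not given in the sources used here, so reads in their shared 1439 bases cannot be told apart. Uhrf1 stood at 0.142 and 0.235 CPM in CTRL, 1.24, 2.07 and 0.702 in APAP_PBS, and 0.408, 0.716 and 0.584 in APAP_MSC. All APAP libraries lay above CTRL, and APAP_PBS and APAP_MSC overlapped through 1 library each. It rose by 2.76 ± 0.65 (SE; edgeR adjusted p = 0.0222), and the call was lost in 7 of 16 alternatives. Among these were all FPKM fits, with 0.45 on the log2(FPKM + 1) scale and 1.58 with a pseudocount of 0.1, and the fits without CTRL replicate 1 or 2 or without APAP_PBS replicate 1 or 2. On the 7 counts of CTRL and the 84 of APAP_PBS the ratio was 7.19, with an exact 95% interval of 3.34 to 18.4 that covers counting error only. Fen1, the nuclease that trims Okazaki fragments, stood at 4.06 and 3.48 CPM in CTRL, 5.31, 3.77 and 3.45 in APAP_PBS, and 4.37, 2.997 and 3.74 in APAP_MSC, with overlapping values and a log2 fold change of 0.15 ± 0.26 (SE; edgeR adjusted p = 0.769).

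Of the genes that control entry into S phase, none passed. E2f1, the activator factor named above, stood at 1.92 and 1.41 CPM in CTRL, 3.56, 2.94 and 2.69 in APAP_PBS, and 2.27, 2.33 and 2.61 in APAP_MSC. The groups did not overlap, with CTRL lowest and APAP_PBS highest, and the log2 fold change in APAP_PBS was 0.89 ± 0.28 (SE; edgeR adjusted p = 0.0698). Ccne1, which encodes a cyclin E, stood at 0.498 and 1.18 CPM in CTRL, 1.47, 1.41 and 1.17 in APAP_PBS, and 1.05, 0.492 and 1.25 in APAP_MSC, with overlapping values (0.64 ± 0.50, SE; edgeR adjusted p = 0.456). Ccne2, the other cyclin E gene, gave 0.86 ± 0.44 (SE; edgeR adjusted p = 0.233). Ccnd1, the cyclin D that acts first, had the opposite sign, at 17.5 and 14.3 CPM in CTRL, 13.8, 13.0 and 10.7 in APAP_PBS, and 12.1, 8.32 and 13.1 in APAP_MSC. Both APAP groups lay below CTRL, and the log2 fold change in APAP_PBS was -0.34 ± 0.20 (SE; edgeR adjusted p = 0.303).

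**Figure D4:**
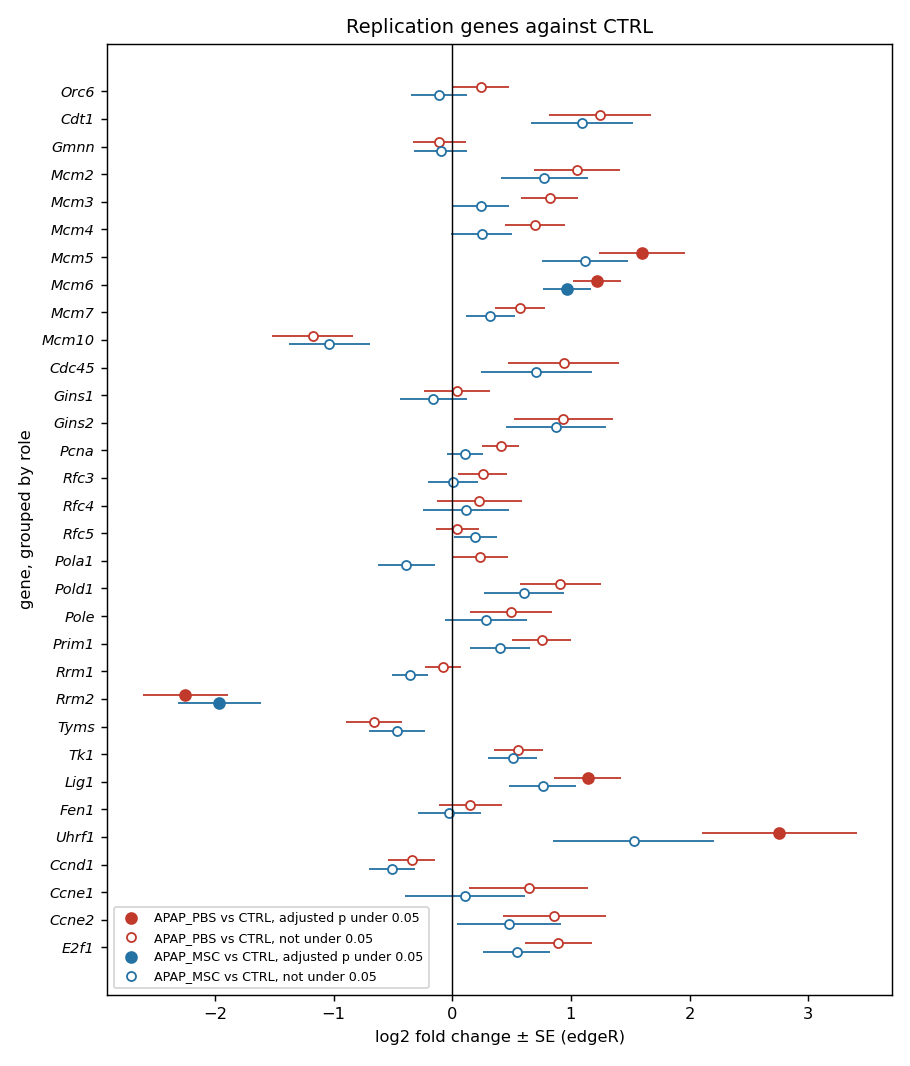
Log2 fold change with its standard error (edgeR) for 32 members in APAP_PBS (red) and APAP_MSC (blue) against the same 2 CTRL libraries, with filled points for adjusted p under 0.05. Cdc6 and Orc1 are left out because CTRL was at 0 counts, and the filled points are Mcm5, Mcm6, Lig1, Uhrf1 and Rrm2 in APAP_PBS and Mcm6 and Rrm2 in APAP_MSC.

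Between APAP_MSC and APAP_PBS no member passed the test. It called 0 members higher and 0 lower, and over all 12722 genes tested it called 0 higher (0%) and 1 lower, Cxcl1 (0.00786%). Unadjusted p was under 0.05 for 5 members, which is 15.2% of the 33, beside 842 genes or 6.62% of all tested, and DESeq2 also called 0 members, with 16 genes higher and 22 lower in all. Without Cdc6, the fold change was below 0 for 27 of 32 members with a median of -0.25 on the log2 scale, beside 51.3% of all genes tested below 0 and a median of -0.0061. The APAP_PBS libraries are shared with the comparison against CTRL, so these signs are not independent of the signs there. The APAP_MSC libraries lay below all APAP_PBS libraries for 5 members (Cdc6, Rfc3, Pola1, Rrm1 and E2f1), where 7.04% of all genes tested did so. They lay above them for 0 members, where 6.81% did. Cdc6, kept through its high APAP_PBS counts, is in this count of 5 and in that of unadjusted p. The other members with unadjusted p under 0.05 were Mcm3, Pcna, Pola1 and Uhrf1. Markers of some other cell types had the same sign in this comparison. Fold changes were below 0 for 8 of 9 monocyte and macrophage markers (median -0.68) and 4 of 4 tested neutrophil markers (-1.71). Of these, S100a8, Retnlg and Ly6c2 passed the filter through their APAP_PBS counts alone, so they had to be high there to be counted. Fold changes were also below 0 for 5 of 5 tested cholangiocyte markers (-1.002) and 5 of 5 tested erythroid markers (-0.79), with 0 called. In other lists, 5 of 6 Kupffer cell (median 0.11), 4 of 7 hepatocyte and 2 of 3 tested T and NK cell markers were above 0. So was the 1 tested B and plasma cell marker. Of the endothelial and of the mesenchymal stromal cell markers 3 of 6 lay above 0, and 5 of 7 stellate markers lay below 0. The summed cholangiocyte level did not overlap between these groups, and the part of these markers in the members' values was not tested. Apart from Cdc6, the largest differences were those of Uhrf1 (-1.23 ± 0.47, SE), Pola1 (-0.62 ± 0.21) and Mcm3 (-0.58 ± 0.20), each with an edgeR adjusted p of at least 0.696. Over the 32 members without Cdc6, 2 standard errors on the fold change ranged from 0.27 to 0.94, so smaller differences could not be resolved for these genes. For Mcm6 the interval of 2 standard errors ran from -0.59 to 0.08, and for Rrm2 from -0.40 to 0.97. The sign for Rrm2 (0.28) turned to -0.15 without APAP_MSC replicate 2 and to -0.014 on deposited FPKM.

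**Figure D5:**
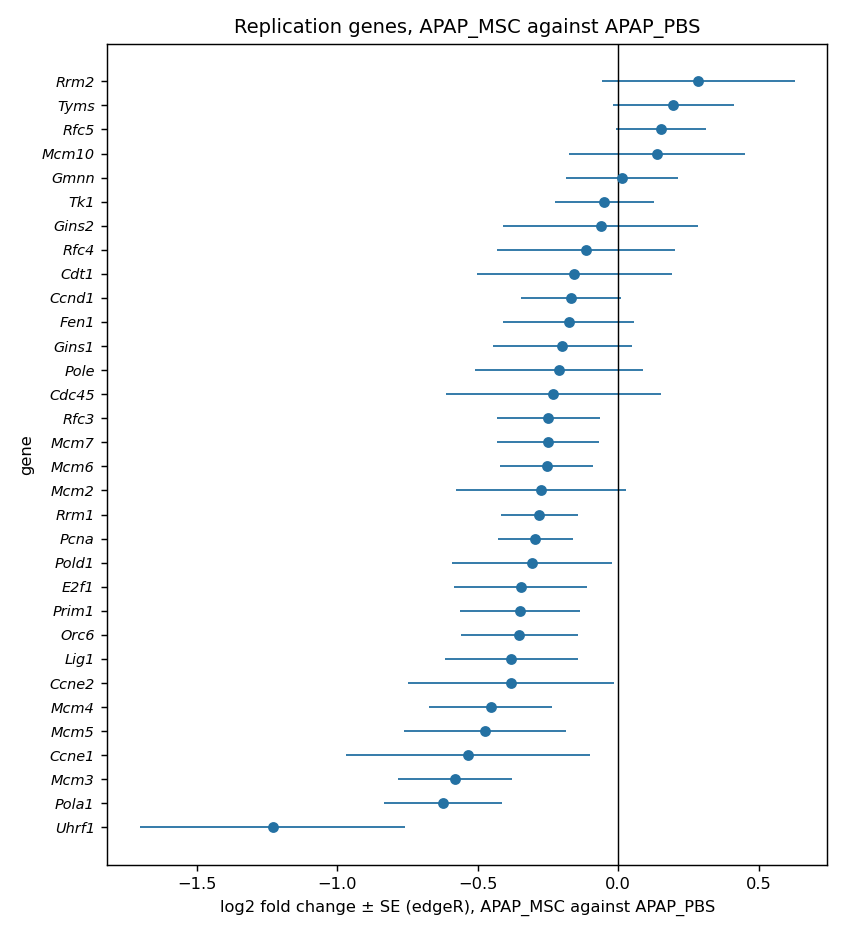
Log2 fold change with its standard error (edgeR) of APAP_MSC against APAP_PBS for 32 members, sorted by value, without Cdc6 and Orc1. The points of 27 members lie left of 0, from -0.05 for Tk1 to -1.23 for Uhrf1, and 5 lie right of it, and none had an adjusted p under 0.05.

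Against CTRL, APAP_MSC livers held more Mcm6 and less Rrm2. These were 1 member higher and 1 lower by the same test, where 2.52% of all genes tested were higher and 3.32% lower. This comparison shares its CTRL libraries with the first one, so the values stand side by side and are not independent. Mcm6 rose by a log2 fold change of 0.96 ± 0.20 (SE; edgeR adjusted p = 0.0208), 1.95-fold. Rrm2 fell by 1.97 ± 0.35 (SE; edgeR adjusted p = 0.0107), 3.91-fold lower. The next members were Mcm5 at 1.12 ± 0.36 (edgeR adjusted p = 0.0956) and Mcm10 at -1.04 ± 0.34 (edgeR adjusted p = 0.126). For Uhrf1 the 38 counts of APAP_MSC against 7 in CTRL gave a ratio of 2.94, with an exact 95% counting interval of 1.30 to 7.81. The APAP_MSC libraries lay above both CTRL libraries for 15 members (among them Cdc6, kept through its APAP_PBS counts), where 17.8% of all genes tested did so. They lay below both for 6 (Mcm10, Pola1, Rrm1, Rrm2, Tyms and Ccnd1), where 17.7% did. Without APAP_MSC replicate 1 or without CTRL replicate 2 neither gene passed. Without APAP_MSC replicate 3 Mcm6 did not pass, and without APAP_MSC replicate 2 Mcm10 passed as well.

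Beyond the members, other genes of the pathway gave few calls. The counts for APAP_PBS against CTRL stand beside 4.29% of all genes tested higher and 5.97% lower. In APAP_PBS against CTRL, 1 of 44 tested genes of other replication factors was higher, Pole3, an accessory subunit of polymerase epsilon, with means of 16.1 ± 0.773 CPM (SD, n = 2) and 23.0 ± 1.69 CPM (SD, n = 3; log2 fold change 0.51 ± 0.12, SE; edgeR adjusted p = 0.0218). Among 16 other genes of nucleotide supply, 0 were higher and 2 were lower. These were Shmt1, which feeds one-carbon units to thymidylate synthesis, at 197 ± 13.5 and 106 ± 2.82 CPM (-0.89 ± 0.10, SE; edgeR adjusted p = 6.9e-04), and Umps, which makes uridine monophosphate, at 33.8 ± 8.38 and 20.8 ± 1.05 CPM (-0.71 ± 0.15, SE; edgeR adjusted p = 0.0122). Of 10 genes that assemble chromatin in S phase, 1 was higher, Chaf1a, a subunit of the histone chaperone CAF-1 (1.32 ± 0.37, SE; edgeR adjusted p = 0.0423).

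Neither 27 other genes of G1 to S control nor the 16 tested of 25 genes of G2 and mitosis gave a call in that comparison. Of the 27, 18 had fold changes above 0 and 9 below it. Cdkn1a of this list stood at 3.28 and 2.40 CPM in CTRL and 35.1, 28.99 and 28.7 in APAP_PBS, without overlap. Its log2 fold change of 3.47 ± 0.98 did not pass (SE; edgeR adjusted p = 0.0879). The fit also held its APAP_MSC values of 31.96, 3.71 and 11.95 CPM. Myc, at 2.85 and 3.10 against 9.04, 7.37 and 5.62 CPM, gave 1.30 ± 0.59 (SE; edgeR adjusted p = 0.206). Both were chosen after their values were seen. The 16 tested mitotic genes had a median log2 fold change of 0.90 in APAP_PBS against CTRL, with 15 of 16 above 0. In APAP_MSC against APAP_PBS their median was -0.98, with 14 of 16 below 0 and 0 called. Both comparisons share the APAP_PBS libraries. Some of the 16, among them Aurkb and Cenpe, passed the filter through their APAP_PBS counts alone. Such genes had to be high in that group to be counted, so neither median is free of that choice. In APAP_MSC against CTRL, Primpol, a primase that restarts stalled forks, was lower (-0.85 ± 0.19, SE; edgeR adjusted p = 0.0264), as was Shmt1 (-0.76 ± 0.10, SE; edgeR adjusted p = 0.00285), and the lists gave no other call. Over all genes tested, 2.52% were higher and 3.32% lower there.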

How the data were processed

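Per the labels' protocols, RNA was extracted with Trizol, enriched on oligo(dT) beads and made into NEBNext Ultra libraries. The submitters' processing notes name fastp 0.18.0. An aligner, quantifier, genome build and strand setting were not given in the sources used here. The authors deposited, per the file headers, an estimated count and an FPKM value per gene and library. Between 6.39% and 7.46% of the estimated counts were not whole and were rounded before testing. Among members this held for Gins2, Rfc5, Tyms and Ccnd1, so some of their reads were shared out between genes. For 11 members a listed gene overlaps on the opposite strand. These include Ccne2, which shares 5622 bases with Ints8 (mean 17.0 CPM), and Gins2, which shares 2758 bases with Gse1 (mean 14.2 CPM). Reads in such shared bases cannot be told apart without the strand setting. Symbols and gene coordinates came from GENCODE M21 (GRCm38), which matched 22128 of 22183 IDs, and promoter windows from RefSeq (GRCm38.p6). All sample columns were used.

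Sample titles gave the groups. After filterByExpr and TMM scaling, genes were tested with the robust quasi-likelihood fit of edgeR 4.0.16 in R 4.3.3, using all 8 libraries and 1 coefficient for each group, with Benjamini-Hochberg adjustment over 12722 genes at 0.05. The SE is the fold change divided by the root of F. Alternatives used DESeq2 1.42.0, limma 3.58.1 on log2(FPKM + 1) or log2(FPKM + 0.1), which understates changes of low genes, with FPKM of at least 0.5 in 2 libraries or unfiltered, library size alone, other filters (none, or at least 1 CPM in 3 libraries), only the groups compared, the replicate number as a block, and each library left out. A left-out library can leave CTRL with 1 sample, which is then assumed to vary like the other groups. The scripts were checked on simulated data. Near the detection limit means a group median of 10 counts or fewer, and the floor is 3 counts. All 34 members are named; those called, and those with the lowest and highest adjusted p of each role in APAP_PBS against CTRL, are given in every library, with some further members added, and called genes of further lists are named, except for a result that is not reported here. The members and lists were chosen with earlier results of these data known. Intervals on counts are exact and cover counting error only.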

Additional observations from a re-analysis of the deposited data

How the results depend on the processing

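In APAP_PBS against CTRL, the 5 members higher became 8 on log2(FPKM + 1), 9 with a pseudocount of 0.1, 15 with library size alone, and 4 on unfiltered FPKM (where Mcm5, Lig1 and Uhrf1 did not pass) and with the stricter filter, and 0 to 7 when single libraries were left out. The 8 and 9 hold neither Uhrf1 nor Cdc6, and Cdc6 did not pass that FPKM filter, so it was not tested there. With the stricter filter neither Cdc6 nor Uhrf1 was tested, and Mcm3 passed. The 1 member lower became 2 with DESeq2 and with only the groups compared, and 1 to 2 with single libraries left out, the added gene being Mcm10. In APAP_MSC against CTRL, the 1 higher became 0 on unfiltered FPKM and 0 to 1 with libraries left out, and the 1 lower became 2 with DESeq2 and 0 to 2 with libraries left out. The cause of these shifts was not tested. No member was called in APAP_MSC against APAP_PBS under any of the alternatives run. There the Rrm2 value of 0.28 became -0.014 on FPKM, filtered or not, -0.055 with a pseudocount of 0.1, and -0.15 to 0.61 with libraries left out. Over all genes, the 546 higher and 760 lower in APAP_PBS became 1620 and 371 with library size alone, 1273 and 349 on FPKM, 1388 and 346 with a pseudocount of 0.1, and 637 and 241 on unfiltered FPKM, and ran from 175 to 790 higher and 303 to 920 lower with libraries left out. In APAP_MSC against CTRL, 321 and 422 became 755 and 236 with library size alone, 565 and 226 on FPKM, 633 and 220 with a pseudocount of 0.1, 245 and 119 on unfiltered FPKM, 496 and 667 with DESeq2, 124 and 170 with only the groups compared and 135 and 186 with the replicate block, and ran from 119 to 657 higher and 141 to 733 lower with libraries left out. Correlations of the deviations of same-numbered libraries ran from -0.147 to 0.186, and those of differently numbered libraries from -0.186 to 0.147. With n = 2 the CTRL deviations mirror each other, so the CTRL correlations cannot show whether libraries were paired. Those of the 3 same-numbered pairs of APAP_PBS and APAP_MSC ran from -0.0633 to -0.00167. With the replicate block, 4 members were higher and 1 lower in APAP_PBS (333 and 460 genes in all); Cdc6 was the member that no longer passed (adjusted p = 0.0525). The other member counts were the same under the replicate block. Depth limits Orc1 and Cdc6 in each group and Uhrf1 in CTRL.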

Other observations

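For a few members the 2 deposited units differed within CTRL. Mcm2 stood at 2.78 and 2.63 CPM in CTRL replicates 1 and 2, while its deposited FPKM values there were 2.44 and 0.731. In APAP_PBS its FPKM values were 2.49, 1.71 and 1.09, so the FPKM of CTRL replicate 1 lay close to the highest APAP_PBS value, whereas all APAP_PBS libraries lay above CTRL in CPM. Mcm7 stood at 7.62 and 8.23 CPM in CTRL, with FPKM values of 2.24 and 4.07. These members were chosen after their values were seen, and no difference between the units was tested.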
